A study of Mus musculus with 15 samples.

Results

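The 10 genes described here encode the granins and the proteins that process prohormones: Scg2, Chga, Chgb, Scg3, Vgf, Pcsk1, Pcsk2, Cpe, Pcsk1n and Scg5. All 10 were found by symbol among the 55416 gene identifiers of the count table, and 9 of them passed the filter on low counts that left 18244 genes for testing. Scg2 was chosen by its measured values, a strong fall of its mRNA in these data, so its values are given as a description with no test. The other 9 were taken because they belong to the same families.

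The cells were hippocampal neural precursor cells of female mice, 6 weeks old, that had been turned into 3 stable lines by piggyBac insertion of a doxycycline-inducible (Tet-On) expression cassette with puromycin resistance. The cassette carried the Atf3 coding sequence in the cells called Atf3 cells here, that of Atf4 in the Atf4 cells, and neither in the control cells. The transgene is driven by the TRE3G promoter, and all 3 lines received doxycycline at 100 ng/ml when EGF and FGF were withdrawn to start differentiation. RNA was taken 10 h later from 5 samples per line, 15 libraries in all. Each construct is represented by 1 line, so a property of a line and the action of its transgene cannot be told apart. The labels do not state that replicates came from independent cultures, and the p-values therefore reflect the spread among these samples alone, which may be technical.

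Granins are acidic proteins that aggregate with calcium in the trans-Golgi network and help to form dense core vesicles, the organelles from which neurons and endocrine cells release peptides on demand. Inside these vesicles prohormones are cut at paired basic residues by the convertases encoded by Pcsk1 and Pcsk2, and carboxypeptidase E, encoded by Cpe, trims the exposed basic residues. Scg5 encodes a chaperone of the Pcsk2 enzyme and Pcsk1n an inhibitor of the Pcsk1 enzyme. Several granin genes are classical targets of CREB, which binds the cyclic AMP response element (CRE). Atf3 and Atf4 belong to the same wider ATF/CREB family of basic leucine zipper factors.

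Because of that known element, the promoters are described first. The members and motifs were chosen with earlier results of these data known, so the matches are a description. RefSeq's table for GRCm38.p6 gave a window of 300 bases, from 250 before to 50 after the start of the gene, for 8 of the 10 members, Vgf and Cpe aside. Both strands were searched for the full CRE, TGACGTCA, for its core TGACG, which each full CRE also contains, for the AP-1 motif TGANTCA and for the C/EBP-ATF composite TGATGNAA. The full CRE was present in 3 of the 8 windows, those of Scg2, Chgb and Pcsk1, and in 1.79% of all 32851 windows of the same length. The core was present in 7 of the 8, against 20.8% of all windows. The AP-1 motif was found in the window of Pcsk1n alone (7.81% of all windows), and the composite in none of the 8 (3.97% of all windows). The 120 bases before the RefSeq start are shown for the 3 promoters with a full CRE and for Chga, which carries the core without an exact full CRE. Each is read 5′ to 3′ on the strand of the gene with the CRE letters in capitals.
Scg2, chr1:79440027-79440146, minus strand: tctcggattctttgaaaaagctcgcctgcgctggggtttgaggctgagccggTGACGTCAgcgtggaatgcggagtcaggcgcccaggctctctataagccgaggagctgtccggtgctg
Chgb, chr2:132781522-132781641, plus strand: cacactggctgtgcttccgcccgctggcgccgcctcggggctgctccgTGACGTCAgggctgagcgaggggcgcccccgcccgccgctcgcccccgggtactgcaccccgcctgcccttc
Pcsk1, chr13:75089737-75089856, plus strand: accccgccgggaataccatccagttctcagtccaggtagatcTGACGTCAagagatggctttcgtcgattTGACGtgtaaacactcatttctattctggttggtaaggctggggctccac
Chga, chr12:102554821-102554940, plus strand: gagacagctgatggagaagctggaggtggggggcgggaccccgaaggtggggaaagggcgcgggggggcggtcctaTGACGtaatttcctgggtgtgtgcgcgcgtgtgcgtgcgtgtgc
The full CRE began at position -68 in Scg2, -72 in Chgb and -78 in Pcsk1, counted from the RefSeq start. In Chga the core began at -44. The letters from there, TGACGTAA, differ from the full CRE by an A in place of its last C. The search counted exact matches only. The GENCODE coordinates used for the genes below place the start of Chgb (132781278) and of Scg2 (79440120, minus strand) further upstream than RefSeq does. By those coordinates the full CREs of Scg2 and Chgb lie inside the annotated gene, after its start. A match of letters describes the window and says nothing of which factor was bound there.

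Library totals were 53.7 to 69.6 M counts. Atf3 mRNA checked the label of the Atf3 line. It was at 1772 to 2107 CPM (counts per 1 M counts of the TMM-scaled library total) in Atf3 cells. In Atf4 cells it was at 1.14 to 1.90 CPM and in control cells at 1.67 to 11.0 CPM. Atf4 was at 227 to 267 CPM in Atf3 cells, 128 to 188 CPM in Atf4 cells and 76.3 to 92.7 CPM in control cells. Atf4 mRNA was 1.84-fold higher in Atf4 cells than in control cells, but it was higher in Atf3 cells than in Atf4 cells. Its level alone therefore does not check the label of the Atf4 line. Control replicates 4 and 5 stood apart from the other control libraries in Atf3, at 11.0 and 7.55 CPM against at most 3.03 CPM. The cells expressed precursor genes: Sox2 averaged 224 ± 13.3 CPM in Atf3 cells, 233 ± 11.4 CPM in Atf4 cells and 228 ± 7.51 CPM in control cells (SD, n = 5 each). Among 10 listed markers of chromaffin and endocrine cells, Th, Dbh, Pnmt, Ins2 and Gcg were near 0, each averaging at most 0.0426 CPM in any line. In the same list 2 markers, Syp and Slc18a2, passed the filter on low counts.

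**Figure D1:**
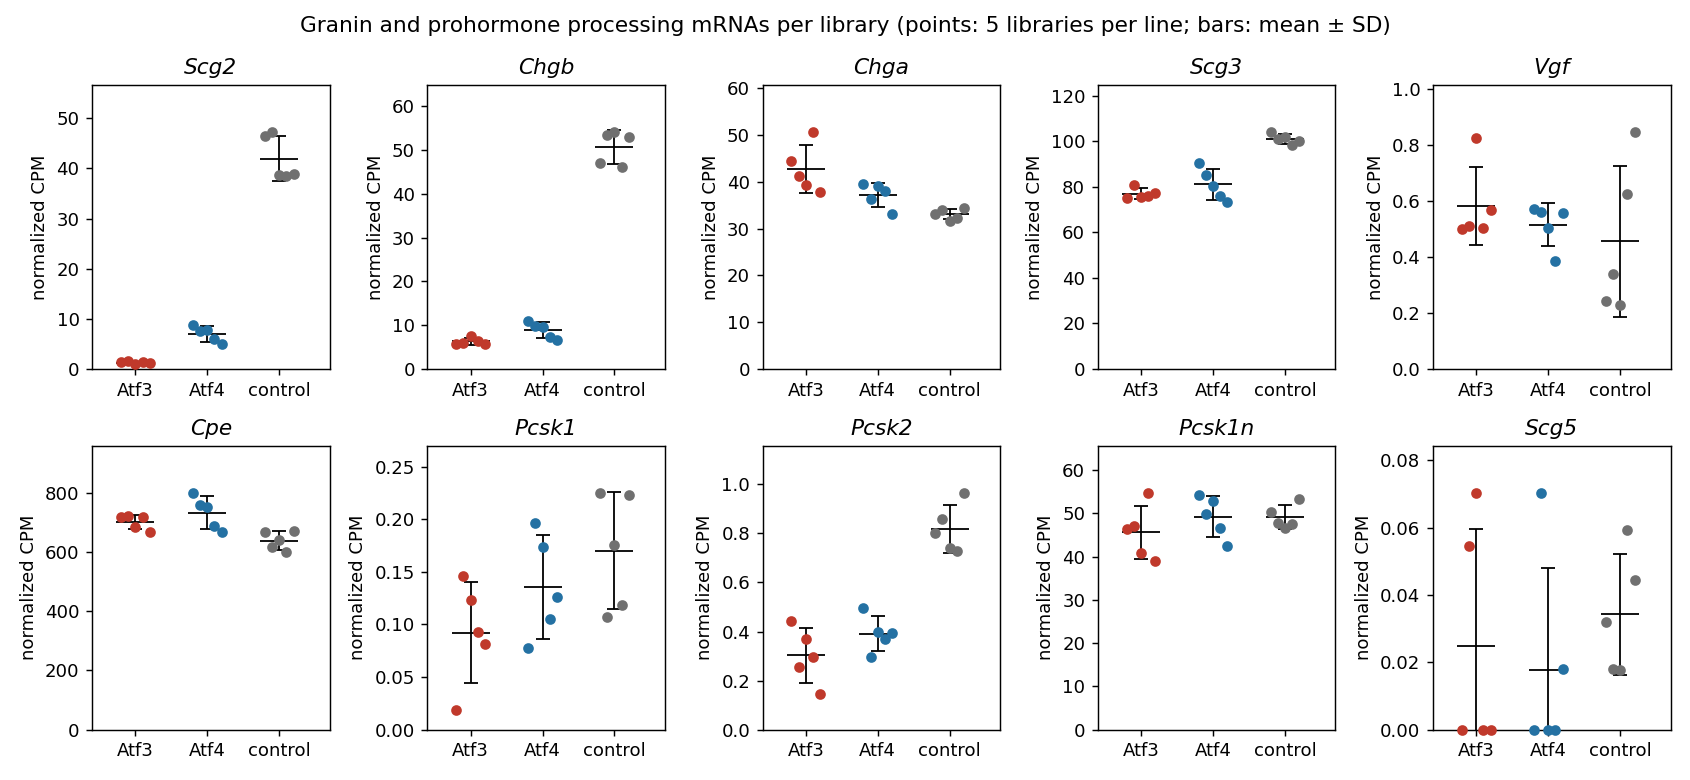
Normalized CPM of each of the 10 genes (linear axes from 0) in Atf3, Atf4 and control cells; points are the 5 libraries of a line and bars the mean ± SD. Scg2 and Chgb lay at 38.4 to 47.2 and 46.0 to 54.1 CPM in control libraries and far below that in both other lines, whereas Cpe and Pcsk1n lay at similar levels in all 3 lines.

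Scg2 encodes secretogranin II, the precursor of the neuropeptide secretoneurin. The gene lies on chromosome 1 of GRCm38 (79434669 to 79440120, minus strand, protein-coding; ENSMUSG00000050711). It was at 1.31, 1.53, 1.00, 1.30 and 1.09 CPM in replicates 1 to 5 of Atf3 cells. In Atf4 cells it was at 8.77, 7.53, 7.76, 5.97 and 4.94 CPM, and in control cells at 46.4, 47.2, 38.6, 38.4 and 38.8 CPM. The 3 lines did not overlap, and Atf4 cells lay between the others. Its level was 33.7-fold lower in Atf3 cells than in control cells (log2 fold change -5.07 ± 0.15 SE), 5.97-fold lower in Atf4 cells than in control cells (-2.58 ± 0.12 SE) and 5.64-fold higher in Atf4 cells than in Atf3 cells (2.50 ± 0.16 SE). Ordered from the lowest log2 fold change, Scg2 ranked 5 among the 18244 genes in Atf3 cells against control, and 42 in Atf4 cells against control. Even in Atf3 cells each library held 57 to 84 Scg2 reads, above the floor of 3 counts. In bulk RNA fewer cells that express a gene and less RNA per cell cannot be told apart, here and in all that follows.

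Chgb encodes chromogranin B, another core protein of the granule, on chromosome 2 (132781278 to 132795079, plus strand; ENSMUSG00000027350). It was at 5.73, 5.95, 7.54, 6.35 and 5.78 CPM in Atf3 cells and at 10.8, 9.72, 9.69, 7.37 and 6.54 CPM in Atf4 cells. In control cells it was at 47.0, 53.5, 54.1, 46.0 and 53.0 CPM. Every control library lay above every library of the other lines, while the Atf3 and Atf4 lines overlapped. Chgb fell 8.08-fold in Atf3 cells (log2 fold change -3.01 ± 0.11 SE, edgeR quasi-likelihood adjusted p = 1.03e-13) and 5.72-fold in Atf4 cells (-2.52 ± 0.11 SE, edgeR adjusted p = 1.55e-12). It was 1.41-fold higher in Atf4 cells than in Atf3 cells (0.50 ± 0.12 SE, edgeR adjusted p = 0.00202). From the lowest log2 fold change it ranked 101 of the 18244 genes in the Atf3 comparison and 49 in the Atf4 comparison.

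Chga, chromogranin A, is the best known granin and the precursor of vasostatin and catestatin (chromosome 12, 102554969 to 102565028, plus strand; ENSMUSG00000021194). It was at 44.6, 41.3, 39.3, 50.6 and 37.8 CPM in Atf3 cells and at 39.6, 36.3, 39.1, 38.0 and 33.1 CPM in Atf4 cells. The control libraries held 33.2, 33.9, 31.8, 32.3 and 34.3 CPM. All Atf3 libraries lay above all control libraries, and Atf4 cells overlapped both. Chga rose in Atf3 cells (log2 fold change 0.37 ± 0.07 SE, edgeR adjusted p = 6.65e-05), opposite in sign to Scg2 and Chgb. Atf4 cells differed from control cells by 0.17 ± 0.07 SE (edgeR adjusted p = 0.0343), but leaving out any 1 control library, or any of Atf4 replicates 1 to 4, ended this call (edgeR adjusted p from 0.0522 to 0.115), as did plain library totals (0.0896) and the filter of 1 CPM (0.0778). Chga was lower in Atf4 cells than in Atf3 cells (-0.20 ± 0.07 SE, edgeR adjusted p = 0.0214), and that call ended without Atf3 replicate 1 or 4 and without Atf4 replicate 2 or 5 (edgeR adjusted p from 0.0502 to 0.0646). It ended too with plain library totals (-0.10, edgeR adjusted p = 0.238) and with only the 2 lines fitted (edgeR adjusted p = 0.0700).

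Scg3, secretogranin III, links chromogranin A to the cholesterol-rich granule membrane (chromosome 9, 75643189 to 75684056, minus strand; ENSMUSG00000032181). It was at 75.0, 80.8, 75.3, 76.0 and 77.5 CPM in Atf3 cells and at 90.3, 85.4, 80.5, 75.7 and 73.4 CPM in Atf4 cells, against 104, 101, 102, 98.3 and 99.9 CPM in control cells. Both lines lay wholly below control cells and overlapped each other. Scg3 fell in Atf3 cells (log2 fold change -0.39 ± 0.05 SE, edgeR adjusted p = 3.71e-07) and in Atf4 cells (-0.32 ± 0.05 SE, edgeR adjusted p = 8.89e-06). Atf4 cells differed from Atf3 cells by 0.08 ± 0.05 SE (edgeR adjusted p = 0.197, approximate 95% interval -0.02 to 0.17). This difference was called with plain library totals (0.18, edgeR adjusted p = 0.00508) and without Atf4 replicate 5 (0.11, edgeR adjusted p = 0.0367).

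Vgf, whose product is a precursor of several neuropeptides and whose mRNA is known to be induced by neurotrophins, was scarce (chromosome 5, 137026392 to 137033351, plus strand; ENSMUSG00000037428). It was at 0.499, 0.510, 0.826, 0.503 and 0.568 CPM in Atf3 cells, 0.571, 0.562, 0.504, 0.385 and 0.557 CPM in Atf4 cells, and 0.241, 0.340, 0.229, 0.623 and 0.846 CPM in control cells, with 13 to 57 reads per library. The control libraries were split, since replicates 4 and 5, which also held the most Atf3 mRNA of that line, were higher than replicates 1 to 3. Over all libraries the log2 fold change was 0.33 ± 0.30 SE in Atf3 cells (edgeR adjusted p = 0.334) and 0.16 ± 0.30 SE in Atf4 cells (edgeR adjusted p = 0.668). Without control replicate 5 the Atf3 value was 0.66 (edgeR adjusted p = 0.0386). Without control replicates 4 and 5 it was 1.09 in Atf3 cells and 0.93 in Atf4 cells (edgeR adjusted p = 0.00104 and 0.00517).

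Of the processing enzymes, Cpe was by far the most abundant (chromosome 8, 64592542 to 64693054, minus strand; ENSMUSG00000037852). It was at 718, 721, 686, 718 and 668 CPM in Atf3 cells, 799.7, 760.0, 752, 689 and 667 CPM in Atf4 cells, and 667, 617, 639, 599.8 and 672 CPM in control cells. The lines overlapped in every pairing. Cpe rose in Atf4 cells against control (log2 fold change 0.20 ± 0.05 SE, edgeR adjusted p = 0.00115). Its difference in Atf3 cells (0.14 ± 0.05 SE, edgeR adjusted p = 0.0138) depended on the scaling: with plain library totals it was -0.0014 (edgeR adjusted p = 0.979). That call also ended without control replicate 2, 3 or 4 (edgeR adjusted p = 0.0568, 0.0529 and 0.104). It ended too with the filter of 1 CPM (edgeR adjusted p = 0.136) and without control replicates 4 and 5 together (edgeR adjusted p = 0.0555). The Atf4 and Atf3 lines differed by 0.06 ± 0.05 SE (edgeR adjusted p = 0.292, approximate 95% interval -0.03 to 0.15), and by 0.16 with plain library totals (edgeR adjusted p = 0.00769).

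Pcsk2, the convertase that acts late in the granule, was scarce in all 3 lines and fell in 2 of them (chromosome 2, 143546156 to 143816285, plus strand; ENSMUSG00000027419). It was at 0.444, 0.255, 0.369, 0.298 and 0.146 CPM in Atf3 cells and 0.494, 0.295, 0.399, 0.368 and 0.395 CPM in Atf4 cells, against 0.803, 0.859, 0.738, 0.727 and 0.964 CPM in control cells. Every control library lay above every other library. The fall was 2.72-fold in Atf3 cells (log2 fold change -1.44 ± 0.22 SE, edgeR adjusted p = 1.20e-05) and 2.10-fold in Atf4 cells (-1.07 ± 0.21 SE, edgeR adjusted p = 2.60e-04), and Atf4 cells differed from Atf3 cells by 0.37 ± 0.24 SE (edgeR adjusted p = 0.226, approximate 95% interval -0.10 to 0.85). These values rest on 9 to 65 reads per library. The library kit does not mark strand, and 4.54% of the exon bases of Pcsk2 are shared with 2 antisense genes, Pcsk2os1 and Pcsk2os2, whose reads cannot be told apart there.

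Pcsk1, the convertase that makes the early cuts, was near the floor of detection (chromosome 13, 75089826 to 75134861, plus strand; ENSMUSG00000021587). Its counts were 1 to 8 reads per library in Atf3 cells, 5 to 14 in Atf4 cells and 6 to 15 in control cells, and all 3 lines overlapped. The log2 fold change was -0.87 ± 0.39 SE in Atf3 cells (edgeR adjusted p = 0.0520, ranging between 0.0265 and 0.131 under the alternatives) and -0.32 ± 0.36 SE in Atf4 cells (edgeR adjusted p = 0.457). Of the alternatives, limma-voom, plain totals and the omission of control replicate 2 or 4, Atf3 replicate 2 or 3, or Atf4 replicate 1 or 2 each brought the Atf3 value under the threshold.

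The endogenous partners of the convertases differed in abundance. Pcsk1n (chromosome X, 7919822 to 7924410, plus strand; ENSMUSG00000039278) was at 39.0 to 54.7 CPM in Atf3 cells, 42.4 to 54.2 CPM in Atf4 cells and 46.5 to 53.3 CPM in control cells. Its log2 fold change was -0.11 ± 0.08 SE in Atf3 cells (edgeR adjusted p = 0.234, approximate 95% interval -0.26 to 0.05) and 0.0029 ± 0.08 SE in Atf4 cells (edgeR adjusted p = 0.977, interval -0.15 to 0.16). Without Atf3 replicate 4, the highest library of that line, the Atf3 value was -0.18 (edgeR adjusted p = 0.0363), and with plain library totals it was -0.24 (edgeR adjusted p = 0.00997). Of Pcsk1n, 6.16% of the exon bases are shared with Eras on the other strand. Scg5 (chromosome 2, 113776362 to 113829121, minus strand; ENSMUSG00000023236) did not pass the low-count filter: it had 0 to 4 reads in Atf3 libraries, with 3 of the 5 at 0, 0 to 5 reads in Atf4 libraries, with 3 of the 5 at 0, and 1 to 4 reads in control libraries. A library with 0 reads allows up to 3 counts, so no difference in Scg5 was detectable at this depth.

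**Figure D2:**
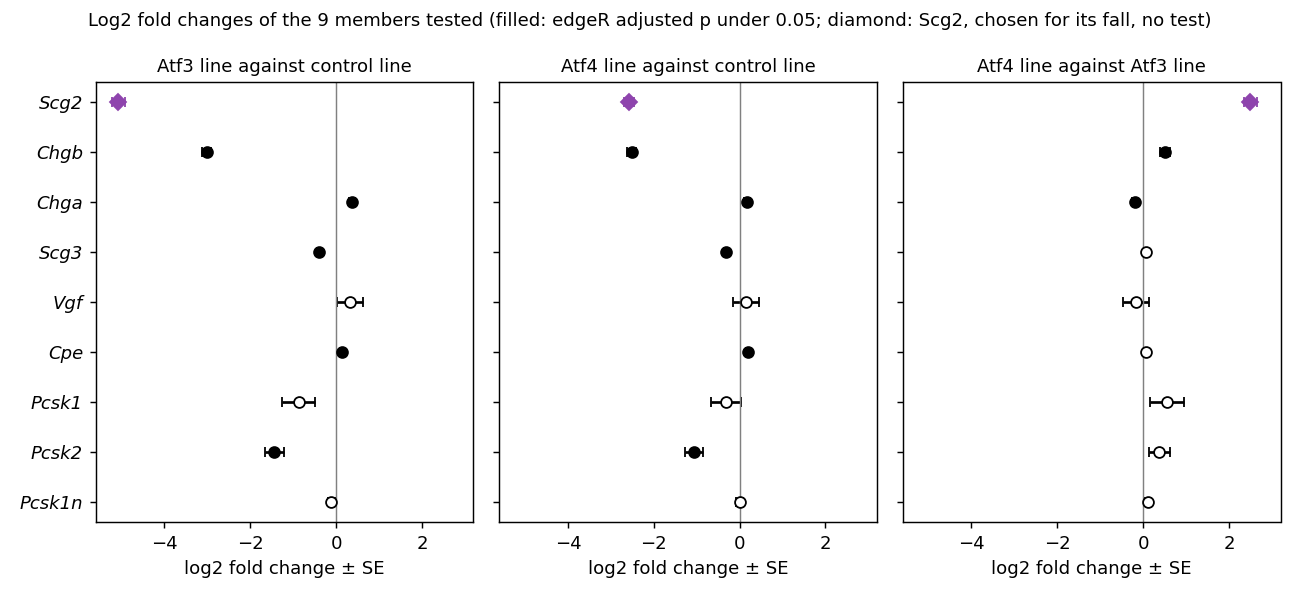
Log2 fold change ± approximate SE of the 9 genes that passed the filter, in the 3 comparisons; filled points have an edgeR adjusted p under 0.05, open points do not, and the diamond is Scg2, which was chosen for its fall and not tested. Against control, Chgb stood at -3.01 in Atf3 cells and -2.52 in Atf4 cells, Pcsk2 at -1.44 and -1.07, and the other tested genes between -0.87 and 0.37.

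Counted together, 3 of the 8 tested members other than Scg2 fell in Atf3 cells (Chgb, Scg3 and Pcsk2) and 2 rose (Chga and Cpe). Over all tested genes 36.3% fell and 36.8% rose in that comparison, 73.2% in all, so the members were called no more often than genes in general. With plain library totals, which set the median of all genes at -0.16, 5211 genes rose and 8363 fell, against 6721 and 6630 with TMM, and 1 member rose and 5 fell. The same 3 fell and the same 2 rose in Atf4 cells, where 29.7% of all tested genes fell and 31.9% rose, 61.6% in all. Both comparisons use the same control libraries. In Atf4 cells against Atf3 cells 1 member was higher (Chgb; 19.7% of all genes) and 1 lower (Chga; 23.9% of all genes, and 43.6% in either direction). That split also depended on the scaling: 3595 genes were higher and 4363 lower with TMM, against 6197 and 2367 with plain totals, under which 4 members were higher and 0 lower. Libraries did not overlap between Atf3 and control cells for 3 of the 8 that were lower and 1 that was higher, against 28.7% and 32.0% of all genes (60.7% in either direction). Between Atf4 and control cells this held for the same 3 that were lower and 0 that were higher, against 21.8% and 26.1% of all genes (47.9% in either direction). Between Atf4 and Atf3 cells all 8 overlapped, while 16.3% of all genes were lower and 9.52% higher without overlap (25.8% in either direction). The median log2 fold change of the 8 was -0.25 in Atf3 cells (-0.02 over all genes) and -0.16 in Atf4 cells (-0.0008 over all genes), and 0.09 between Atf4 and Atf3 cells (0.007 over all genes). By these counts the 8 genes were close to the background.

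The granins moved by unlike amounts, and their proportions differed between lines. Levels were divided by exon length so that genes could be set beside each other. In control cells the order was Scg3 at 36.9 ± 0.774, Chgb at 18.5 ± 1.41, Scg2 at 16.7 ± 1.79, Chga at 12.01 ± 0.394 and Vgf at 0.153 ± 0.0908 CPM per kb (SD, n = 5). Chgb and Scg2, neighbours in that order, differed by little more than their SDs. In Atf3 cells the order was Scg3 at 28.1 ± 0.857, Chga at 15.5 ± 1.85, Chgb at 2.29 ± 0.274, Scg2 at 0.496 ± 0.0826 and Vgf at 0.196 ± 0.0470 CPM per kb. In Atf4 cells Scg3 was at 29.6 ± 2.52, Chga at 13.5 ± 0.952, Chgb at 3.22 ± 0.657, Scg2 at 2.78 ± 0.607 and Vgf at 0.173 ± 0.0261 CPM per kb, where Chgb and Scg2 differed by less than their spread. Cpe stood above every granin, at 269 ± 9.16 CPM per kb in Atf3 cells, 281 ± 20.9 in Atf4 cells and 245 ± 11.9 in control cells, and Pcsk2, Pcsk1 and Scg5 stood below them all, at no more than 0.103 CPM per kb in any line. Without Scg2, whose values chose it, the other 4 granins summed to 46.1 ± 1.72 CPM per kb in Atf3 cells, 46.5 ± 3.85 in Atf4 cells and 67.6 ± 1.77 in control cells.

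Among these 4 granins, Scg2 left out, Chga made up 33.6 ± 2.87% per length in Atf3 cells, 29.1 ± 1.52% in Atf4 cells and 17.8 ± 0.561% in control cells. Chgb made up 4.97 ± 0.659% in Atf3 cells, 6.88 ± 0.887% in Atf4 cells and 27.4 ± 1.497% in control cells, and Scg3 61.0 ± 2.69% in Atf3 cells, 63.7 ± 1.26% in Atf4 cells and 54.6 ± 1.36% in control cells. The ratio of Chgb to Chga counts was 0.125 to 0.192 in Atf3 libraries, 0.194 to 0.274 in Atf4 libraries and 1.42 to 1.70 in control libraries. As a description of values that chose Scg2, its ratio to Chgb was 0.202 ± 0.0467 in Atf3 cells, 0.790 ± 0.0241 in Atf4 cells and 0.831 ± 0.113 in control cells. The summed CPM of all 10 members, mostly Cpe, was 876 ± 33.6 in Atf3 cells, 918 ± 71.0 in Atf4 cells and 916 ± 36.6 in control cells.

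**Figure D3:**
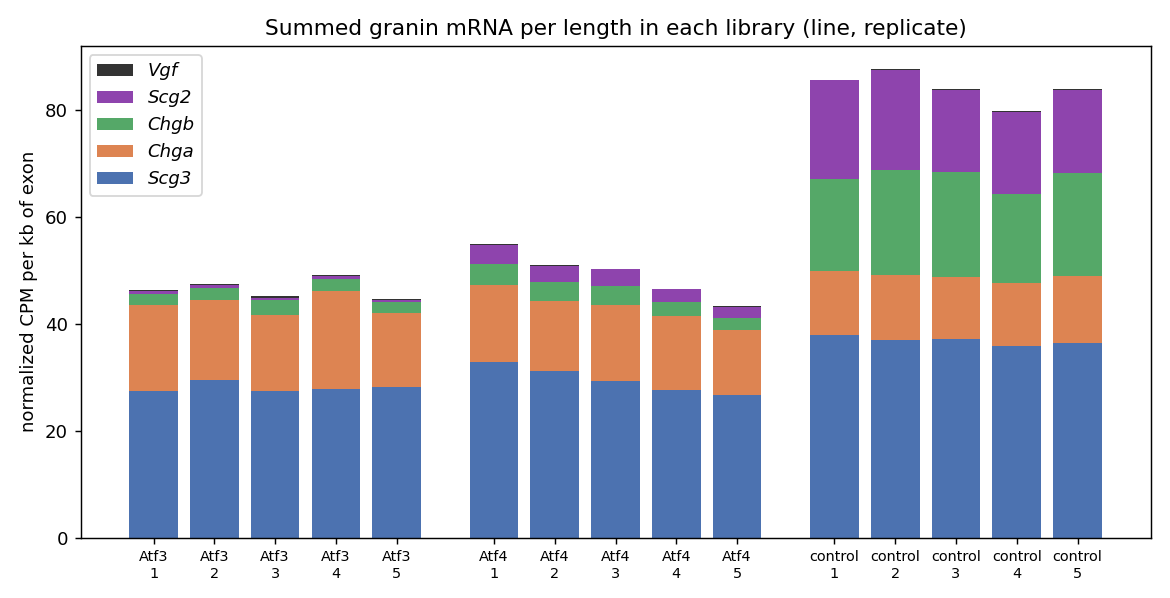
Normalized CPM per kb of exon of 5 granins, stacked for each library of Atf3, Atf4 and control cells (replicates 1 to 5 from left to right). Without the Scg2 part, which the choice of Scg2 fixed, the sum averaged 46.1 CPM per kb in Atf3 cells, 46.5 in Atf4 cells and 67.6 in control cells, and the Chgb part is smaller in Atf3 and Atf4 cells than in control cells.

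Within Atf4 cells the well-expressed members ranked the libraries alike. Scg2, Chga, Chgb, Scg3, Pcsk1n and Cpe were each lowest in replicate 5 and highest in replicate 1, 6 of the 6 members whose log2 CPM averaged 2 or more. Of all 11432 genes at that level, 23.2% had the same lowest and highest library, so the ordering was not particular to these genes. Atf4 mRNA ran the other way, at 128 CPM in replicate 1 and 188 CPM in replicate 5. Atf4 replicate 5 also lay closest to Atf3 cells in Scg2 (4.94 CPM) and in Chgb (6.54 CPM, inside the range of the Atf3 libraries). With 5 libraries no correlation was computed, and this ordering was noticed after the values were seen. Over genes with at least 20 counts, Atf4 replicates 1 and 5 differed more than any other 2 libraries of a line (chi-square 53.4 per degree of freedom). The cause was not tested.

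**Figure D4:**
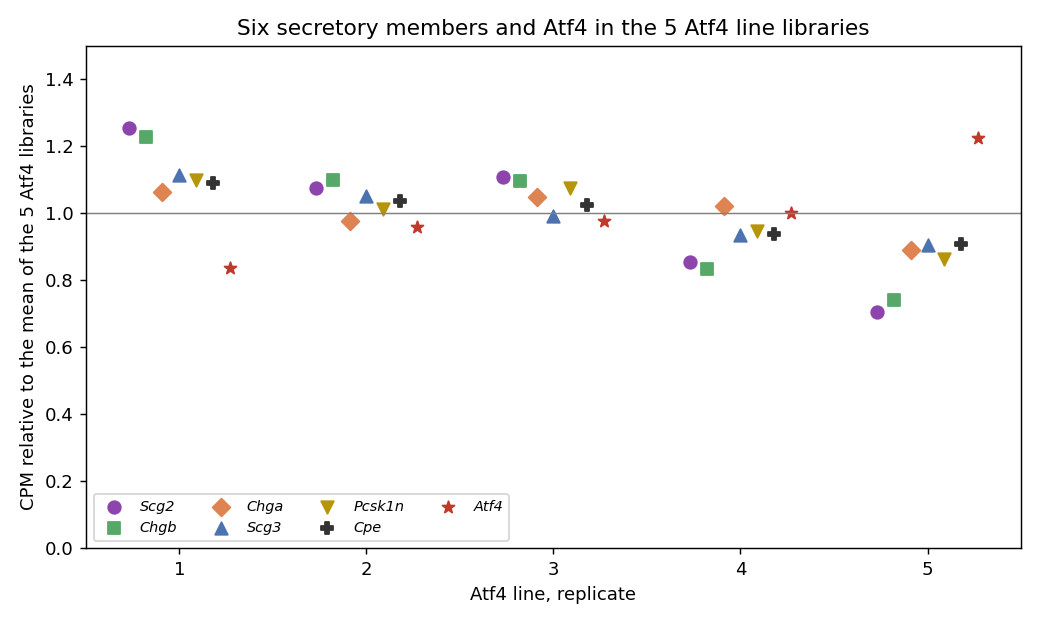
CPM of 6 members and of Atf4 in each Atf4 library, divided by the mean of the 5 libraries (linear axis from 0; the grey line marks that mean). In replicate 1 the 6 members lie above the line and Atf4 below it, and in replicate 5 the reverse holds.

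The 5 genes whose log2 CPM over the 15 libraries was most like that of Scg2 were Fbxo32, Smoc1, Kif19a, Accs and Tmem255a, with Pearson's r of 0.992 to 0.994. These libraries form 3 separate lines, so r mostly ranks genes by their line means and carries no test. Fbxo32, a ubiquitin ligase subunit, was at 1.79 to 3.11 CPM in Atf3 cells, 4.76 to 10.4 CPM in Atf4 cells and 25.0 to 27.4 CPM in control cells. Smoc1, a secreted calcium-binding matrix protein, was at 7.65 to 10.7 CPM in Atf3 cells, 15.6 to 31.2 CPM in Atf4 cells and 71.6 to 77.8 CPM in control cells. In Kif19a, Accs and Tmem255a, Atf4 libraries lay between the Atf3 and control libraries without overlap. The choice of genes by likeness to Scg2 favours this order, so it is no further result. Without Atf4 replicate 5, 2 of these 5 genes stayed among the closest 5, and without Atf3 replicate 4, 3 of the 5.

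The full CRE was then set against the fold changes of all genes. Of 411 tested genes with such a window, 161 fell and 175 rose in Atf3 cells (39.2% and 42.6%), beside 36.3% and 36.8% of all genes. Their median log2 fold change was 0.03, against -0.02 over all genes. A log2 fold change of -1 or less was found in 6.57% of them and in 10.4% of all genes. In Atf4 cells 136 fell and 146 rose (33.1% and 35.5%), beside 29.7% and 31.9% of all genes, with a median of 0.0053 (-0.0008 over all genes), and 2.92% were at -1 or less, beside 4.85% of all genes. No gene of the 411 other than Scg2 and Chgb lay as low as Chgb in either comparison against control. Chgb set that cutoff and Scg2 was chosen for its fall, so the place of these 2 genes is no result. Both are also among the 411 in the shares above.

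The other genes of the regulated secretory pathway were then counted, from lists made by function. Their counts are to be read against the share of all tested genes that were called: 36.8% rose and 36.3% fell in Atf3 cells, and 31.9% rose and 29.7% fell in Atf4 cells. Of 25 genes for the build-up and release of dense core vesicles, 22 were tested, and 7 rose and 8 fell in Atf3 cells, near the share over all genes, with a median log2 fold change of -0.06 (-0.02 over all genes). The calcium sensor genes Syt7 and Syt1 rose, to 82.6 ± 5.98 CPM in Atf3 cells against 32.7 ± 3.46 CPM in control cells for Syt7 (1.34 on the log2 scale, edgeR adjusted p = 7.88e-11) and to 2.60 ± 0.123 against 0.824 ± 0.156 CPM for Syt1. The vesicle GTPase gene Rab3a rose as well, by 0.81 on the log2 scale. Rab3d, another GTPase of secretory granules, fell by 1.41, Hid1, which acts in granule formation at the trans-Golgi network, fell by 0.67, and Sytl4, which tethers granules, fell by 0.51. In Atf4 cells 6 rose and 7 fell of the 22. Syt7 rose by 0.82, Syt1 by 1.08 and Ica1, which acts in granule maturation, by 0.35 on the log2 scale. The SNARE gene Vamp2 fell by 0.24, Syt11 by 0.34 and Rab2a by 0.30. Some of these genes were called alike in both lines. Ica1 rose by 0.25 and Rab2a fell by 0.17 in Atf3 cells, while Rab3a rose by 0.30 and Hid1 fell by 0.43 in Atf4 cells. Rab3d averaged 5.61 ± 0.922 CPM in Atf3 cells, 9.67 ± 1.89 CPM in Atf4 cells and 14.9 ± 0.730 CPM in control cells.

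Of 19 other convertases and peptide processing enzymes, 17 were tested, and 5 rose and 9 fell in Atf3 cells (median -0.16), beside 36.8% and 36.3% of all genes, while 5 rose and 6 fell in Atf4 cells (median -0.03), beside 31.9% and 29.7%. Prep, a prolyl peptidase, rose to 144 ± 5.85 CPM in Atf3 cells and 106 ± 7.81 CPM in Atf4 cells, against 62.0 ± 1.38 CPM in control cells. The convertase gene Pcsk6, whose product works in the constitutive secretory route, rose by 0.71 in Atf3 cells and 0.67 in Atf4 cells on the log2 scale, and the prolylcarboxypeptidase gene Prcp by 0.58 and 0.23. Cpd, the Golgi relative of carboxypeptidase E, fell to 347 ± 24.2 CPM in Atf3 cells and 470.0 ± 18.4 CPM in Atf4 cells, against 624 ± 36.2 CPM in control cells. Cpm, a membrane-bound carboxypeptidase, fell by 1.66 in Atf3 cells and by 0.93 in Atf4 cells. Ece1, the endothelin-converting enzyme, fell by 0.42 in Atf3 cells and was not called in Atf4 cells. The cathepsin gene Ctsl fell by 0.39 in Atf3 cells and by 0.37 in Atf4 cells.

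Few substrates of this pathway were expressed. Of 25 neuropeptide, prohormone and neurotrophin genes 7 passed the filter, and in Atf3 cells 1 rose and 3 fell, in Atf4 cells 2 rose and 3 fell, beside 73.2% of all genes called in Atf3 cells and 61.6% in Atf4 cells. Bdnf, the neurotrophin gene, was the most abundant, at 19.7 ± 1.28 CPM in Atf3 cells, 15.6 ± 0.932 CPM in Atf4 cells and 15.8 ± 1.17 CPM in control cells, and rose in Atf3 cells (0.32, edgeR adjusted p = 8.83e-05). Pomc, the precursor of melanocortins, fell to 0.814 ± 0.142 CPM in Atf3 cells and 1.01 ± 0.152 CPM in Atf4 cells, against 1.59 ± 0.186 CPM in control cells. Npff and Nmb fell in both lines, by 0.47 and 0.66 in Atf3 cells and by 0.44 and 0.58 in Atf4 cells on the log2 scale. Nucb2, the nesfatin precursor, rose in Atf4 cells (0.28), as did the scarce Gnrh1 (0.50, edgeR adjusted p = 0.0392). Sst, Vip, Cck, Tac1, Nts, Adcyap1, Pnoc and Ntf3 each averaged at most 0.0159 CPM in any line.

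Among 15 transcription factors and cofactors known from secretory gene control, 11 were tested, and 2 rose and 6 fell in Atf3 cells, where 73.2% of all genes were called, while 4 rose and 5 fell in Atf4 cells, where 61.6% were called. Crem, a CRE-binding factor, fell to 9.67 ± 0.615 CPM in Atf3 cells and 14.4 ± 0.591 CPM in Atf4 cells, against 21.4 ± 0.708 CPM in control cells. Rest, the repressor of neuronal and granin genes, was lower in both lines, at 71.6 ± 2.64 CPM in Atf3 cells, 73.3 ± 4.76 CPM in Atf4 cells and 86.5 ± 1.77 CPM in control cells. Its corepressor gene Rcor2 fell by 1.61 in Atf3 cells and by 0.74 in Atf4 cells on the log2 scale. Rcor1 rose by 0.23 in Atf3 cells and by 0.14 in Atf4 cells. Crebbp, a coactivator of CREB, fell by 0.59 in Atf3 cells and by 0.42 in Atf4 cells. Neurod1 rose in both lines (0.78 in Atf3 cells and 0.52 in Atf4 cells), and Pax6 (0.14) in Atf4 cells. Between Atf4 and Atf3 cells, 19.7% of all tested genes were higher and 23.9% lower. Beside that, 6 of the 22 vesicle genes were higher and 9 lower, and 6 of the 17 processing enzymes were higher and 4 lower. Of the 7 substrates 1 was higher and 1 lower, and of the 11 factors 4 were higher and 0 lower. With plain library totals the higher ones numbered 12 among the enzymes and 7 among the factors in that comparison, while 4 vesicle genes and 1 factor rose in Atf3 cells, and 2 factors and 1 substrate in Atf4 cells.

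**Figure D5:**
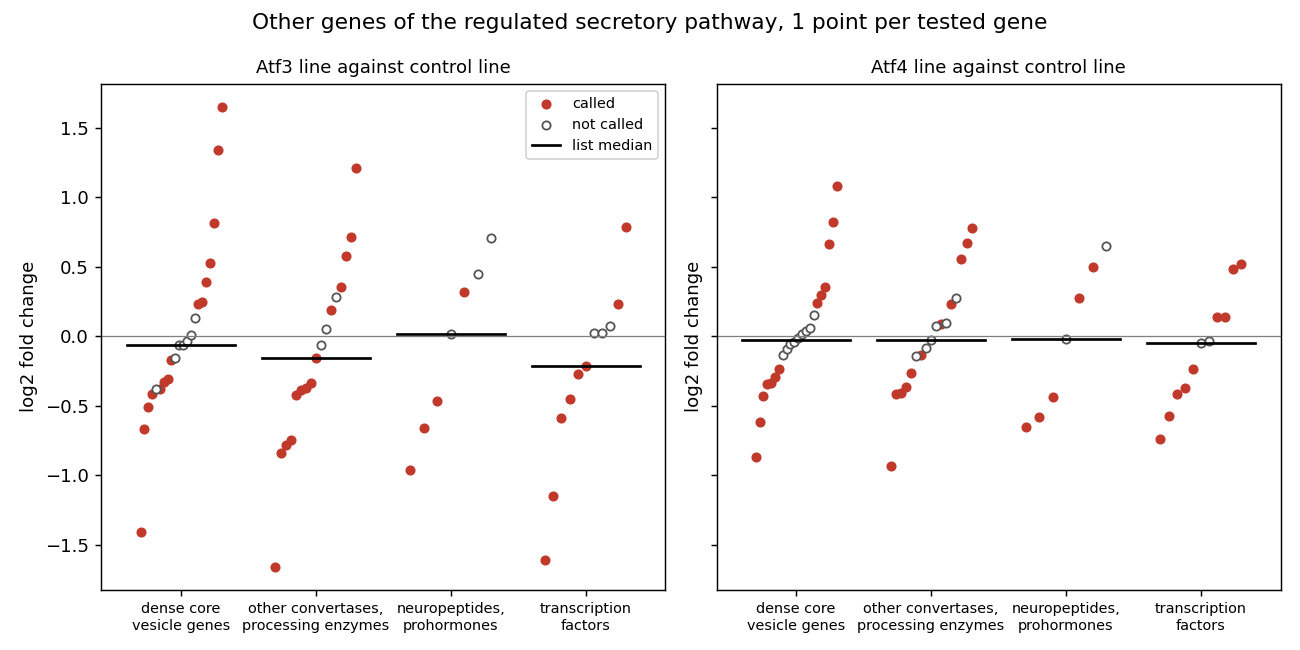
Log2 fold changes of the tested genes of 4 lists in Atf3 cells (left) and Atf4 cells (right) against control cells; filled points have an edgeR adjusted p under 0.05 and bars are list medians. The medians lay between -0.22 and 0.02 in Atf3 cells and between -0.05 and -0.02 in Atf4 cells, with genes on both sides of 0 in each list.

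Markers of other cell types differed between lines as well. Of 15 neuronal markers 13 were tested. In Atf3 cells 3 rose and 7 fell, in Atf4 cells 3 rose and 6 fell, and the same shares over all genes apply. Their summed level was 1526 to 1753 CPM in Atf3 cells, 1565 to 1713 CPM in Atf4 cells and 1835 to 2020.4 CPM in control cells, most of it from Map2. Tubb3, the neuronal tubulin, was at 15.7 ± 1.97 CPM in Atf3 cells, 43.0 ± 7.77 CPM in Atf4 cells and 85.1 ± 2.06 CPM in control cells, and Dcx and Elavl4 fell in both lines (by 0.93 and 0.49 on the log2 scale in Atf3 cells, by 1.45 and 0.98 in Atf4 cells). Other neuronal markers rose: Syt1 (1.65), Myt1l (1.62) and Gap43 (1.38) in Atf3 cells, and Syt1 (1.08), Gap43 (0.99) and Snap25 (0.66) in Atf4 cells, all of them averaging 2.60 CPM or less in every line. Stmn2 averaged at most 0.0095 CPM and Nefl at most 0.0859 CPM in any line. Of 11 oligodendrocyte lineage markers 1 rose and 10 fell in Atf3 cells, and 1 rose and 9 fell in Atf4 cells. Their summed level was 3069 to 3911 CPM in Atf3 cells, 3630.1 to 4343 CPM in Atf4 cells and 4438 to 4978 CPM in control cells. Of 10 tested astrocyte markers 3 rose and 5 fell in Atf3 cells and 4 rose and 6 fell in Atf4 cells, and their summed level was 1769 to 1996 CPM in Atf3 cells, 1683 to 1811 CPM in Atf4 cells and 1497 to 1706 CPM in control cells. Of 13 tested precursor markers 3 rose and 5 fell in Atf3 cells and 5 rose and 6 fell in Atf4 cells, and the list summed to 4342 to 4435 CPM in Atf3 cells, 4020.0 to 4137 CPM in Atf4 cells and 3845 to 4153 CPM in control cells. Of 5 tested endothelial markers 3 rose and 2 fell in Atf3 cells and 3 rose and 1 fell in Atf4 cells. Their sum, most of it from Kdr, was 13.7 to 19.9 CPM in Atf3 cells, 19.2 to 22.5 CPM in Atf4 cells and 45.4 to 49.8 CPM in control cells. Microglia markers summed to at most 1.51 CPM with C1qa at 0 in every library, and of the 2 tested 1 rose and 1 fell in each line. Of 2 tested neuroendocrine markers 1, Syp, fell in Atf3 cells and 0 were called in Atf4 cells, and Gcg was at 0 in every library. The neuroendocrine sum was 9.97 to 11.8 CPM in Atf3 cells, 12.2 to 14.1 CPM in Atf4 cells and 13.9 to 14.8 CPM in control cells, most of it from Syp. The part of any of these shifts in the granin levels was not tested.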

How the data were processed

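RNA of 15 libraries was sequenced in pairs of reads (150 bases each), and the authors deposited a table of raw, unnormalized counts per gene. The submitters' processing notes name STAR, edgeR and mm10, without versions. How reads were counted, on which strand and with which annotation was not stated in the sources.

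Group and replicate number came from each title. Symbols and coordinates of GRCm38 (GENCODE M21) matched 52135 of 55416 identifiers, and the rest held at most 0.208% of a library's counts. Libraries of a line differed beyond sampling noise (chi-square 5.47 to 53.4 per degree of freedom), and each was counted as a sample. That spread may be technical, so the chi-square does not show that the libraries came from independent cultures.

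All 15 libraries entered a single fit in R 4.3.3 with edgeR 4.0.16 (TMM, filterByExpr, quasi-likelihood test, two-sided). Benjamini-Hochberg adjustment ran over 18244 tested genes, and an adjusted p under 0.05 was called. The SE is the size of the log2 fold change divided by the square root of F, and the approximate 95% interval is 1.96 SE to each side. CPM uses TMM-scaled totals. The scripts were tested on simulated data. The alternatives were RLE size factors, plain totals, no filter, a filter of 1 CPM in 5 libraries, DESeq2 1.42.0, limma-voom (limma 3.58.1), only the 2 lines compared, the replicate number as a block, each library left out and, added with the data known, control replicates 4 and 5 left out.

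The members, the 11 other gene lists, the motifs and the rule for named genes were chosen with earlier results of these data known. Named genes are all members, Atf3 and Atf4, up to 3 called genes per list and direction with the smallest adjusted p against control, and the 5 most like Scg2, except 1 gene that is not reported here. Others are named as defining markers or as the main part of a sum, after their values were seen. Floors cover counting error only. Protein features planned for the members were not computed here.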

Additional observations from a re-analysis of the deposited data

Results flagged for a closer look

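Among the 27 sets of 5 libraries formed by the 9 tested members and 3 lines, 1 held a library that lay apart by Dixon's test at the 95% level. Vgf was at 0.826 CPM in Atf3 replicate 3, against at most 0.568 CPM in the other Atf3 libraries. Chance alone marks about 1 in 20 such sets. The comparison of Vgf with the control line without that library is among the alternatives, and no member was called in opposite directions in the Atf3 and Atf4 lines.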

How the results depend on the processing

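Of 637 log2 fold changes of single members, Scg2 included, under the 24 alternatives, 581 kept their sign and their side of the threshold, 17 gained a call, 23 lost one and 16 changed sign. Of these 16 only Cpe in Atf3 cells was called with the main settings (-0.0014 with plain library totals). The other 15 were never called: 13 of Pcsk1n in Atf4 cells, down to -0.04, and 2 of Vgf in Atf4 cells, down to -0.02. The 581 include all 24 values of Scg2 in each comparison. Scg2 was chosen for its fall and not tested, so its values in that count are no support for stability. Chgb stayed within -3.15 to -2.98 in Atf3 cells and -2.61 to -2.44 in Atf4 cells, Scg3 within -0.53 to -0.36 and -0.37 to -0.30, and Pcsk2 within -1.62 to -1.25 and -1.18 to -0.99, called in each alternative that tested them. The filter of 1 CPM removed Vgf, Pcsk1 and Pcsk2. Members that rose numbered 2 in Atf3 cells and 2 in Atf4 cells, against 1 and 1 with plain totals and 1 and 1 with the filter of 1 CPM. Members that fell in Atf3 cells numbered 3, and 5 with plain totals. Between Atf4 and Atf3 cells 4 members were higher and 0 lower with plain totals, and 0 were lower when only the 2 lines compared were fitted. Leaving out each library in turn gave 1 to 3 members higher and 3 to 4 lower in Atf3 cells, 1 to 2 higher in Atf4 cells, and 1 to 2 higher and 0 to 1 lower in Atf4 against Atf3 cells. The causes were not tested. Over all genes, plain totals gave 6197 higher and 2367 lower between Atf4 and Atf3 cells, against 3595 and 4363 with TMM. Same-numbered libraries did not deviate together (correlations of -0.079 to 0.098, and 1 of 5 libraries correlated best with its own number in each comparison), so the numbers were not taken to pair samples. With the replicate number as a block Chgb was at -3.02 in Atf3 cells and -2.53 in Atf4 cells, and no member's call changed in the 3 comparisons. Vgf, Pcsk1, Pcsk2 and Scg5 rest on at most 65 reads per library, which limits what could be detected.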
